A study of Mus musculus with 13 samples.

Results

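The 37 genes described here encode the enzymes of cholesterol and fatty acid synthesis, the sterol sensors that control them and the proteins that move or export sterol. They were taken by gene symbol from a table of read counts, and all 37 were found among its 13549 genes. RNA was sequenced from oligodendrocyte precursor cells (OPCs) of the C57BL/6 mouse brain and from immature oligodendrocytes (iOLs), which were cells of the same kind kept in differentiation medium for 2 days. OPCs grew in a DMEM-Sato medium with the mitogen PDGF and with NT-3, and for iOLs PDGF was withdrawn and the thyroid hormone T3 was added. Each stage was measured in control cells and in cells of a conditional knockout (cKO) of Eed. The Eed protein is a histone-reading part of the Polycomb complex PRC2, which methylates histone H3 and keeps developmental genes silent. The groups held 2 control OPC libraries, 3 Eed cKO OPC libraries, 2 control iOL libraries and 2 Eed cKO iOL libraries. Among OPCs, control replicate 1 and both of the first Eed cKO replicates (1 and 2) came from postnatal day 7 brains, and the other 6 libraries, all iOLs included, from day 6. The Cre line, the deleted part of Eed and the alleles of the controls are not given in the sources used here. The genotype entry of the labels reads EED cKO for controls too, so the groups rest on the sample titles. Nothing in the labels says that replicates came from separate animals or cultures, so p-values measure only the spread between these libraries, which may be technical.

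Cholesterol is built from acetyl-CoA. Thiolase and synthase (Acat2 and Hmgcs1) start the mevalonate pathway, which makes isoprenoid units, and squalene is then closed to lanosterol and trimmed to cholesterol by a chain of enzymes from Lss to Dhcr7. Fatty acids start from the same acetyl-CoA, made in the cytosol by Acly, and are assembled by Acaca and Fasn, then elongated by Elovl enzymes and desaturated by Scd and Fads enzymes. The transcription factors encoded by Srebf1 and Srebf2 switch on both sets. When sterol is low Scap carries them to the Golgi to be cut, and when it is high the Insig proteins hold Scap back. Oxysterols act the other way through the LXR receptors, which switch on the efflux genes Abca1, Abcg1 and Apoe and also Srebf1. Myelin is rich in cholesterol, and oligodendrocytes make much of it themselves.

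Total counts ran from 17417529 to 19680398 a library. Levels are given as CPM, counts scaled to a common library size with TMM factors, which assume that most genes do not change. For the targeted gene Eed the OPC controls were at 21.7 and 16.8 CPM, the OPC knockouts at 13.3, 11.8 and 12.5 CPM, the iOL controls at 18.0 and 21.2 CPM and the iOL knockouts at 14.6 and 12.1 CPM. At each stage the highest knockout library was below the lowest control, though not past the test over all genes (edgeR adjusted p = 0.0847 and 0.0973). All 10 OPC markers were measured, and their summed level was 13116 to 16698 CPM in control OPCs, 15389.5 to 16104 in cKO OPCs, 5579 to 6047 in control iOLs and 4902 to 5313 in cKO iOLs. For 9 myelin markers of the 10 written the sums were 6492 and 2150.2 CPM in control OPCs, 1982, 2765 and 1013 in cKO OPCs, 5227 and 5293 in control iOLs and 1381 and 1990.1 in cKO iOLs. OPC control replicate 1 thus had a higher myelin marker sum than any other library. Astrocyte markers differed as well, with 11 of 12 measured and sums of 4432 and 12008 CPM in control OPCs, 3679.5, 3891 and 9193 in cKO OPCs, 6875 and 7129 in control iOLs and 10171 and 12177 in cKO iOLs. Among OPCs both day 6 libraries were above the 3 of day 7. Gfap made up much of the iOL sums. Without it they were 3097 and 3474 CPM in control iOLs and 4056 and 4239.5 CPM in cKO iOLs. In these bulk samples fewer cells of a type and less RNA per cell cannot be told apart.

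Promoters of 29 of the 37 genes were found in the RefSeq table (build GRCm38.p6, the same assembly as the mm10 build of the counts), in 39 windows of 250 bases before to 50 bases after a transcript start. They were searched on both strands for letters that SREBP factors and their partner NF-Y are known to bind. The NF-Y box, CCAAT, was in the windows of 22 of the 29 genes (75.9%), against 43.1% of the 10589 genes of the count table that have a promoter. By window it was in 59.0% of 39 against 37.6% of 13667. The sterol regulatory element TCACCCCAC was in 1 of the 39 windows, that of Hmgcs1, which is 2.56% against 0.585% of the windows of the count table's genes. The looser form TCACNCCAC, which overlaps it, was in the same 1 window (1.15% of the others' windows). The E-box CACGTG was in 8 windows (20.5% against 9.60%), and AGGTCA repeated after 4 free bases, the LXR form, was in none of the windows of either set. A match is a description of the letters and not a measured binding site. The 250 bases before the start are shown for 5 genes on which the results below turn, with CCAAT on either strand and the sterol element in capitals. Hmgcs1 (chr13:119690101-119690350, plus strand) rose over differentiation in controls and holds the sterol element 137 to 129 bases before its start. Hsd17b7 (chr1:169969206-169969455, minus strand) had the largest increase of an enzyme in controls, Idi1 (chr13:8885356-8885605, plus strand) the largest decrease of an enzyme in cKO cultures and Insig1 (chr5:28071162-28071411, plus strand) the largest decrease among the genes of SREBP control. Mvk (chr5:114444019-114444268, plus strand) had the log2 fold change nearest 0 over differentiation in controls and holds 5 boxes.
Hmgcs1: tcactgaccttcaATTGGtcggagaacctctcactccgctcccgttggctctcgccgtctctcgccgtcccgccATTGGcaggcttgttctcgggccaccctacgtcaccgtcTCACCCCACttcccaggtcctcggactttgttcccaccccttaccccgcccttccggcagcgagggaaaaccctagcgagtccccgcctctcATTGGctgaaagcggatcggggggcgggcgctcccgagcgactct
Hsd17b7: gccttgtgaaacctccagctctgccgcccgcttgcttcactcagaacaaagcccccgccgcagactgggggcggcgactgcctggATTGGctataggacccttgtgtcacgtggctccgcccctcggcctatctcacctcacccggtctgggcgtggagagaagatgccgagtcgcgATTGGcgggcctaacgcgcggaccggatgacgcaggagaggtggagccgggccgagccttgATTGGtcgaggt
Idi1: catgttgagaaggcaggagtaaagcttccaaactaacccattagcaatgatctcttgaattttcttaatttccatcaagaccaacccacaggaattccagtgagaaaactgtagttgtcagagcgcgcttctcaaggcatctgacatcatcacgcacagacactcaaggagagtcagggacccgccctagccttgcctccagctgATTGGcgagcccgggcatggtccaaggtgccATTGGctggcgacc
Insig1: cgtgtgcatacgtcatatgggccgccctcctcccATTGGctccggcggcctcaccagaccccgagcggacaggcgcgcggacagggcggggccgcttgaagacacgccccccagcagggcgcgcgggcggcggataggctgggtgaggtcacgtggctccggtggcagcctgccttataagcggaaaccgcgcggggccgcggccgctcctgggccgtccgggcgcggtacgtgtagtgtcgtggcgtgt
Mvk: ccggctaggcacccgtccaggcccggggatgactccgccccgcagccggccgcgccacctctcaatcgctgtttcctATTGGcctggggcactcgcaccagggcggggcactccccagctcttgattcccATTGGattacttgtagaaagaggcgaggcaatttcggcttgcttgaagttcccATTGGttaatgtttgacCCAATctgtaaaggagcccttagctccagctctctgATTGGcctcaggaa

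Together the 37 genes took 1.37% and 1.94% of the counts in the 2 control OPC libraries and 1.42%, 1.44% and 1.65% in the cKO OPC libraries. They took 1.33% and 1.41% in control iOLs and 1.09% and 1.21% in cKO iOLs, so both cKO iOL libraries were below the other 7. A few abundant genes weigh heavily in these shares. Scd2 alone held 75430 and 79595 of the 238445 and 252599 counts of the 37 in control iOLs. In cKO iOLs it held 53773 and 68021 of 196084 and 221790, and it was not called between these groups (edgeR adjusted p = 0.535). The 7 mevalonate pathway genes summed to 1559.8 and 1433 CPM in control OPCs and 1434, 1487 and 1226 in cKO OPCs, and to 1861 and 1996 in control iOLs and 1173 and 1261 in cKO iOLs. Control iOLs were highest and 1 cKO iOL library was lowest, with cKO OPC replicate 3 between the 2 cKO iOL libraries. Hmgcs1 made up most of each of these sums, at 950.3 and 985 CPM in control OPCs and 1421 and 1528 CPM in control iOLs. It was the only 1 of the 7 called higher over differentiation in controls, so the high sum of control iOLs does not describe the whole pathway. For the 11 genes from squalene to cholesterol the sums were 2284 and 2182 CPM in control OPCs, 2438, 2629 and 1961 in cKO OPCs, 2178 and 2462 in control iOLs and 1563 and 1659 in cKO iOLs, with both cKO iOL libraries below all others.

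**Figure D1:**
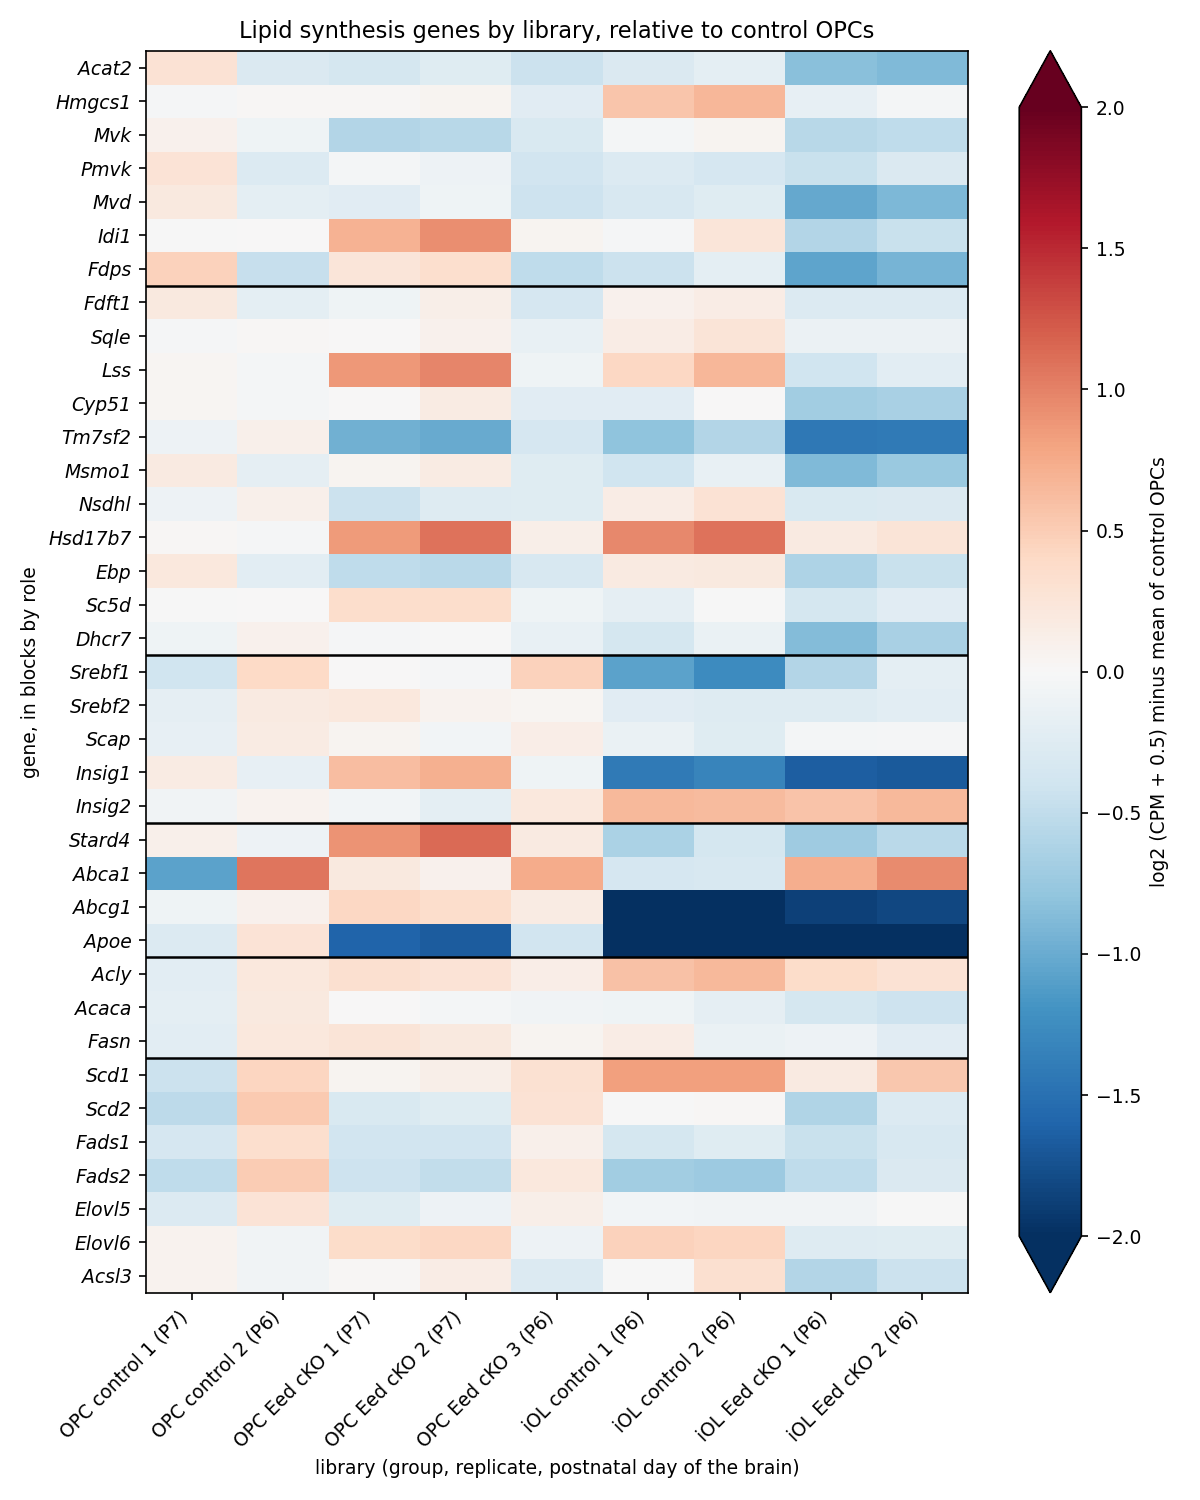
Level of each of the 37 genes (rows, in blocks by role) in each of the 9 libraries (columns), as log2 of CPM plus 0.5 minus the mean of the 2 control OPC libraries, with the colour scale ending at −2 and 2. The efflux genes Apoe and Abcg1 are blue in all 4 iOL libraries, Hmgcs1 and Hsd17b7 are red in both control iOL libraries, and most sterol enzymes are blue in both cKO iOL libraries.

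Control iOLs were compared with control OPCs to find which steps of lipid synthesis change over 2 days of differentiation. The efflux genes Apoe and Abcg1, the control genes Insig1 and Srebf1 and the enzyme gene Tm7sf2 fell, and Hmgcs1, Hsd17b7, Insig2, Acly and Scd1 rose. Of the 37 genes 5 rose and 5 fell at an edgeR adjusted p under 0.05, and 27 did not pass. Among all genes tested 21.0% rose and 25.3% fell, so a smaller share of the 37 than of all genes was called in either direction. The median log2 fold change over the 37 was −0.10, beside −0.06 over all genes.

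Among the efflux genes, Apoe encodes the lipoprotein that carries lipid out of glia (chromosome 7, 19696244 to 19701310, mm10). Its level was 2739.8 and 4013 CPM in the control OPC libraries and 294 and 367 CPM in the control iOL libraries. The groups lay far apart, and the decrease was 10.2-fold (log2 −3.35 ± 0.45, edgeR adjusted p = 0.000356). Abcg1, a transporter that passes sterol to lipoproteins (chromosome 17, 31057694 to 31117984), was at 39.0 and 44.3 CPM in control OPCs and 9.43 and 6.66 CPM in control iOLs. It too fell with no overlap, 5.18-fold (log2 −2.37 ± 0.19, adjusted p = 1.83e-05 by edgeR). Abca1, the transporter that loads lipid onto apolipoproteins, gave no such split: it was at 67.4 and 300.3 CPM in the 2 control OPC libraries, which enclosed the 113 and 113 CPM of control iOLs (log2 −0.70 ± 0.52, adjusted p = 0.296). Its value depended on which control OPC library was used: by edgeR it was called lower with postnatal day as a term (log2 −1.04, adjusted p = 0.0154), in day 6 libraries alone (log2 −1.40, adjusted p = 0.000153) and without OPC control replicate 1 (log2 −1.41), and called higher without OPC control replicate 2 (log2 0.74, adjusted p = 0.038). Stard4, a carrier of sterol between membranes, was at 136 and 117 CPM and 81.3 and 98.2 CPM (log2 −0.49 ± 0.26, adjusted p = 0.153) and did not pass.

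Astrocytes make much of the Apoe of the brain. Of the 11 astrocyte markers 5 fell and 1 rose in control cultures, the latter being Gfap (log2 2.38 ± 0.53, edgeR adjusted p = 0.00566). Without Gfap the other 10 summed to 3993 and 11017 CPM in control OPCs and 3097 and 3474 CPM in control iOLs. In cKO cultures the same sum was 3492, 3704 and 8692 CPM in OPCs and 4056 and 4239.5 CPM in iOLs. Within the OPCs Apoe, Abca1 and this sum were each higher in the day 6 libraries than in the day 7 libraries of their genotype. Microglia also make Apoe. Of 16 microglial markers 3 were measured, of which 1 fell and 0 rose in control cultures. Their sum was 36.4 and 31.1 CPM in control OPCs and 19.4 and 20.8 CPM in control iOLs, lower in iOLs as Apoe was, and 26.3 to 31.0 CPM in cKO OPCs and 20.1 to 23.5 CPM in cKO iOLs. Csf1r, Cx3cr1 and Tyrobp are among the 16, and levels of single microglial markers are not given here. Those of the 16 that were not measured are absent from the count table. The part of either cell type in the Apoe decrease was not tested.

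**Figure D2:**
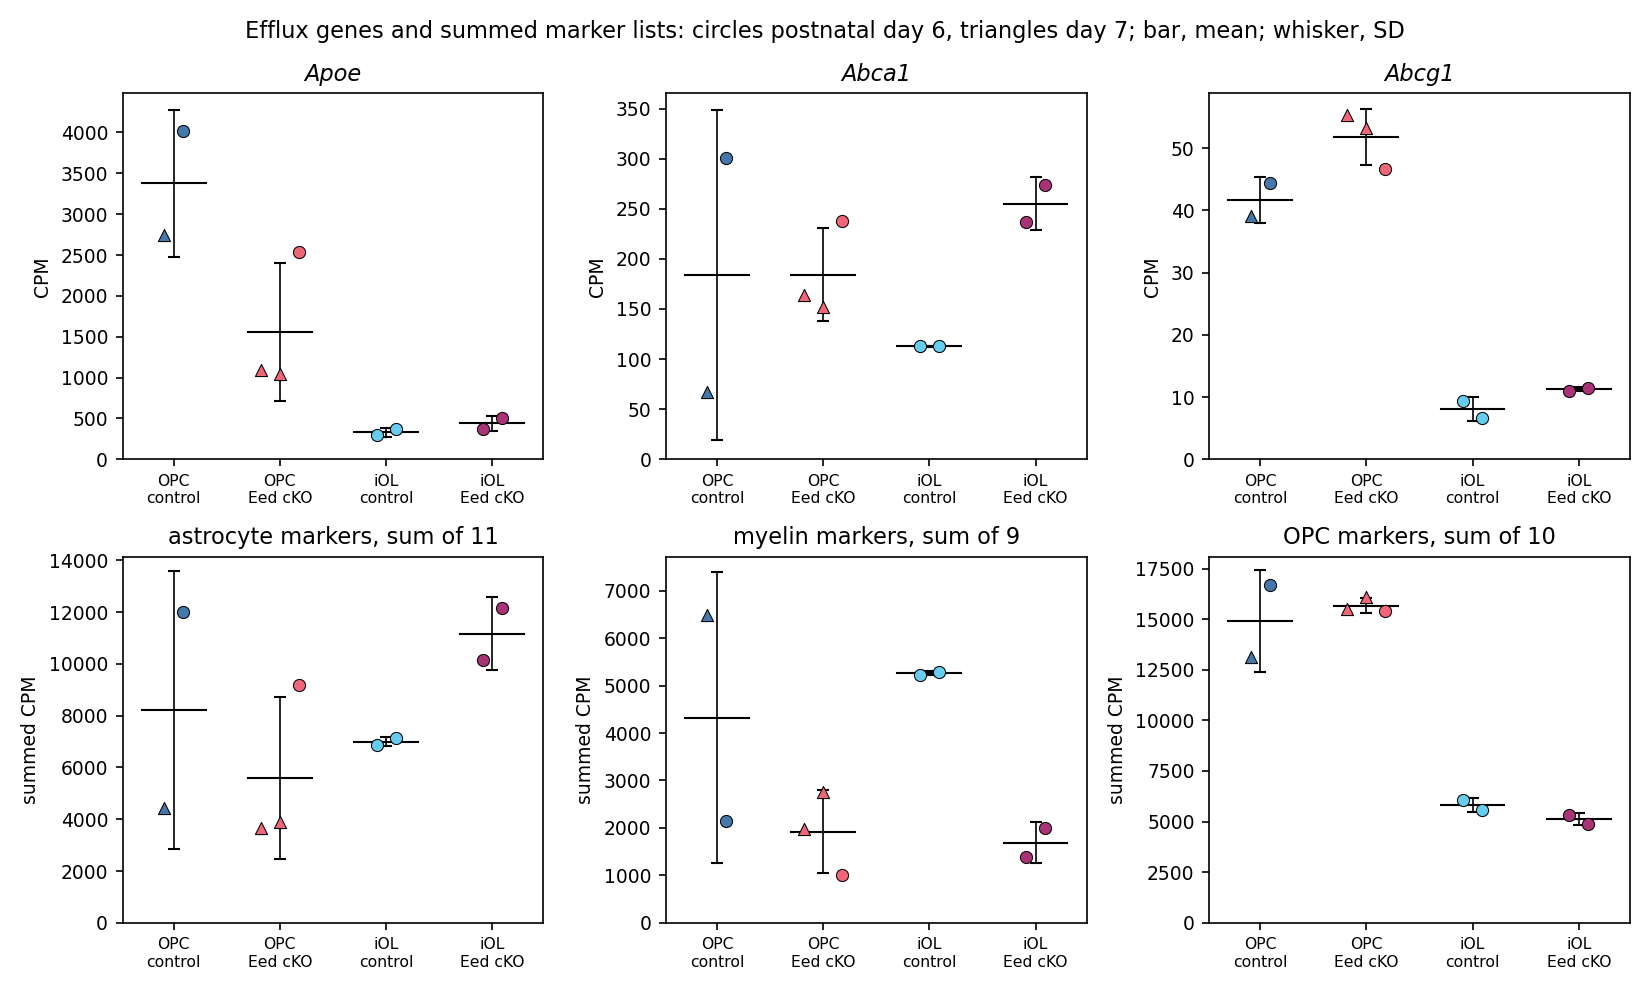
Level of the efflux genes Apoe, Abca1 and Abcg1 (CPM, upper row) and summed level of the astrocyte, myelin and OPC markers (summed CPM, lower row) in each library by group, with postnatal day 6 as circles and day 7 as triangles, the mean as a bar and the SD as a whisker. All 4 iOL libraries are below all 5 OPC libraries for Apoe and Abcg1. The astrocyte sum, which includes Gfap, is highest in iOL Eed cKO replicate 2 and OPC control replicate 2. Without Gfap these 2 libraries are at 4239.5 and 11017 CPM.

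Of the control genes of the pathway, Insig1, the sterol-regulated retention protein of Scap (chromosome 5, 28071412 to 28078662), was at 321 and 257 CPM in control OPCs and 107 and 114 CPM in control iOLs. Both iOL libraries were below both OPC libraries, a 2.61-fold decrease (log2 −1.38 ± 0.24, edgeR adjusted p = 0.00146). Its paralog Insig2 (chromosome 1, 121304353 to 121332662) went the other way, from 17.6 and 19.5 CPM to 29.2 and 28.9 CPM with no overlap (log2 0.65 ± 0.16, adjusted p = 0.0101 by edgeR). Srebf1, the factor that favours fatty acid genes (chromosome 11, 60199084 to 60224186), was at 156 and 272 CPM in control OPCs and 98.0 and 85.7 CPM in control iOLs. It fell 2.33-fold (log2 −1.22 ± 0.27, adjusted p = 0.00524 by edgeR), although the OPC libraries differed widely between themselves. Srebf2, the factor that favours sterol genes, and Scap did not pass, at log2 −0.25 ± 0.15 and −0.20 ± 0.14 (adjusted p = 0.209 and 0.273).

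Among the sterol enzymes 2 rose and 1 fell. Hmgcs1, which condenses acetyl-CoA units to HMG-CoA (chromosome 13, 119690351 to 119708260; promoter shown above), was at 950.3 and 985 CPM in control OPCs and 1421 and 1528 CPM in control iOLs. The iOL libraries were the higher pair, 1.52-fold (log2 0.61 ± 0.16, edgeR adjusted p = 0.0125). Hsd17b7, a ketoreductase that acts on the methylated sterols after lanosterol (chromosome 1, 169949535 to 169969242), rose 2.04-fold, from 55.8 and 54.2 CPM to 107 and 117 CPM (log2 1.03 ± 0.25, adjusted p = 0.00945). Tm7sf2, a sterol reductase of the same stretch, fell from 94.3 and 109.6 CPM to 58.2 and 67.5 CPM (log2 −0.70 ± 0.22, adjusted p = 0.0255), with both iOL libraries the lower. The other 15 sterol enzymes did not pass, and their log2 fold changes lay between −0.39 (Fdps) and 0.55 (Lss, the cyclase that makes lanosterol). They include Mvk, Pmvk and Mvd, the kinases and the decarboxylase of mevalonate, Fdft1 and Sqle, which make squalene and its epoxide, and Cyp51, Msmo1, Nsdhl, Ebp, Sc5d and Dhcr7 of the later steps.

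On the fatty acid side Acly and Scd1 rose. Acly, which splits citrate to cytosolic acetyl-CoA (chromosome 11, 100476352 to 100528000), was at 277 and 371 CPM in control OPCs and 480.4 and 500.2 CPM in control iOLs (log2 0.60 ± 0.16, edgeR adjusted p = 0.0142). Scd1, a desaturase that makes oleate (chromosome 19, 44394450 to 44407709), was at 248 and 451 CPM and 591 and 594 CPM (log2 0.76 ± 0.25, adjusted p = 0.0349). The iOL libraries were the higher pair for both genes. Scd2, its brain paralog in the same gene cluster, was at 3013 and 6222 CPM in OPCs, which spanned the 4284 and 4419 CPM of iOLs (log2 −0.09 ± 0.34, adjusted p = 0.855). The sources used here do not give how reads shared by Scd1 and Scd2 were counted, and their split is uncertain. Acaca and Fasn, the carboxylase and the synthase, were at log2 −0.14 ± 0.14 and 0.002 ± 0.19 and did not pass. Nor did the desaturases Fads1 and Fads2 (−0.34 ± 0.24 and −0.80 ± 0.33), the elongases Elovl5 and Elovl6 (−0.08 ± 0.18 and 0.44 ± 0.17) or Acsl3, which activates fatty acids (0.16 ± 0.17). The control OPC libraries, of different days, were at 416 and 843 CPM for Fads2, which edgeR called lower with postnatal day as a term (log2 −1.13, adjusted p = 0.000155) and in day 6 libraries alone (log2 −1.22, adjusted p = 0.00037), as DESeq2 did with all libraries (log2 −0.79, adjusted p = 0.0313).

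The calls of Apoe, Abcg1, Insig1 and Srebf1 held without each library in turn. Those of Hmgcs1, Acly and Insig2 ended without either control iOL library (edgeR adjusted p = 0.0523 to 0.0878, 0.0593 to 0.0794 and 0.0509 to 0.0557), that of Hsd17b7 without iOL control replicate 2 (0.0509), that of Tm7sf2 without either or without OPC control replicate 2 (0.0645 to 0.148), and that of Scd1 without either control iOL library, replicate 1 of the control OPCs or replicate 1 or 2 of the cKO OPCs (0.0516 to 0.113). In the day 6 libraries alone, with 1 control OPC library, Scd1 was at log2 0.40, Lss at 0.59 and Elovl6 at 0.51. With all libraries they were at 0.76, 0.55 and 0.44. With postnatal day as a term edgeR called Lss (log2 0.82, adjusted p = 0.0107) and Elovl6 (log2 0.61, adjusted p = 0.00217) higher. Elovl6 was also called higher by edgeR with RLE scaling (adjusted p = 0.0444) and by DESeq2 (adjusted p = 0.0298). In 13 of 17 alternatives Lss stayed uncalled, and in 11 of 17 Elovl6 did.

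In Eed cKO cultures the same comparison found 10 sterol enzymes lower in iOLs. Of the 37 genes 1 rose, 17 fell and 19 did not pass, where 18.5% of all genes tested rose and 21.8% fell. The median log2 fold change was −0.37 over the 37 and −0.0046 over all genes, and 31 of the 37 values were below 0. By role, 4 of 7 mevalonate genes, 6 of 11 genes from squalene to cholesterol, 1 of 5 genes of SREBP control, 3 of 4 transport and efflux genes, 1 of 3 fatty acid synthesis genes and 2 of 7 desaturation, elongation and activation genes fell. Tm7sf2, Insig1, Abcg1 and Apoe fell and Insig2 rose in both genotypes.

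Idi1, the isomerase of the isoprenoid units (chromosome 13, 8885606 to 8892396), was at 38.5, 45.3 and 24.5 CPM in the 3 OPC libraries of the knockout and 15.5 and 17.1 CPM in its iOLs. Both iOL libraries were below all 3 OPC libraries, 2.21-fold on average (log2 −1.15 ± 0.24, edgeR adjusted p = 0.00441). In controls it was at 23.5 and 23.7 CPM and 23.2 and 27.9 CPM (log2 0.12 ± 0.25, adjusted p = 0.731), where the groups overlapped. Fdps, which joins the units, fell from 32.4, 34.6 and 19.0 CPM to 12.9 and 14.1 CPM in cKO cultures (log2 −1.09 ± 0.32, adjusted p = 0.0226). Mvd, the decarboxylase before Idi1, fell from 107, 118 and 93.6 CPM to 61.5 and 66.8 CPM (log2 −0.72 ± 0.15, adjusted p = 0.0037), again with no overlap. The thiolase Acat2 fell by less (log2 −0.53 ± 0.16, adjusted p = 0.026). Hmgcs1 went from 981, 1006 and 825 CPM to 864 and 938 CPM, ranges that overlap (log2 −0.06 ± 0.15, adjusted p = 0.782).

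For Lss the cKO OPC libraries were at 461, 499 and 239 CPM and the cKO iOL libraries at 192 and 218 CPM (chromosome 10, 76531565 to 76557139). Replicates 1 and 2 of the OPCs, both of day 7, were about as high as each other and replicate 3 lay near the iOLs (log2 −0.96 ± 0.27, edgeR adjusted p = 0.0204). Msmo1, an oxidase of sterol methyl groups (chromosome 8, 64718123 to 64733578), was at 302, 327 and 246 CPM and 157 and 173 CPM, with every iOL library lower (log2 −0.82 ± 0.16, adjusted p = 0.00365). Dhcr7, the reductase of the last step, was at 248, 249.9 and 227 CPM and 138 and 159.9 CPM, also without overlap (log2 −0.70 ± 0.13, adjusted p = 0.0021). Cyp51, the lanosterol demethylase (log2 −0.66 ± 0.15), Tm7sf2 (−0.69 ± 0.20) and the desaturase Sc5d (−0.51 ± 0.15) completed the 6, with adjusted p of 0.00629, 0.0231 and 0.0219. Hsd17b7 was at 99.2, 118 and 59.7 CPM and 62.0 and 65.8 CPM, where OPC replicate 3 lay below both iOL libraries (log2 −0.53 ± 0.23, adjusted p = 0.1).

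Insig1 had the second largest decrease of the 37 in cKO cultures after Abcg1, from 439.9, 468 and 269 CPM to 91.2 and 89.6 CPM, 4.34-fold (log2 −2.12 ± 0.23, edgeR adjusted p = 0.000128). Stard4 fell 2.67-fold, from 234, 275 and 142 CPM to 76.4 and 86.3 CPM (log2 −1.42 ± 0.25, adjusted p = 0.00179). For both genes all iOL libraries were below all OPC libraries. Abcg1 went from 55.3, 53.2 and 46.7 CPM to 11.01 and 11.47 CPM (log2 −2.20 ± 0.17, adjusted p = 1.94e-05) and Apoe from 1092, 1049 and 2537 CPM to 372 and 507 CPM (log2 −1.83 ± 0.40, adjusted p = 0.00616). Insig2 rose, from 17.7, 16.1 and 21.6 CPM to 27.7 and 29.2 CPM (log2 0.62 ± 0.15, adjusted p = 0.00847), with the iOLs higher throughout. Srebf1 did not pass (log2 −0.55 ± 0.25, adjusted p = 0.105), but edgeR called it lower with postnatal day as a term (log2 −0.94, adjusted p = 0.00119) and in day 6 libraries alone (log2 −0.83, adjusted p = 0.00736). The values of Srebf2, Scap and Abca1, not called, were −0.34 ± 0.14, −0.08 ± 0.13 and 0.47 ± 0.47.

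Of the fatty acid genes Acaca (log2 −0.36 ± 0.13), Elovl6, the elongase of palmitate (−0.50 ± 0.15), and Acsl3 (−0.48 ± 0.15) fell, with edgeR adjusted p of 0.0493, 0.0287 and 0.0331. Elovl6 went from 203, 210.5 and 147 CPM to 132 and 133 CPM, and it was OPC replicates 1 and 2 that stood above the rest. Acly and Scd1 did not pass in cKO cultures (log2 0.08 ± 0.15 and 0.21 ± 0.23, adjusted p = 0.68 and 0.499). Fasn, Scd2, Fads1, Fads2 and Elovl5 lay between −0.37 and 0.03 and were not called either.

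The calls of Abcg1, Dhcr7, Idi1, Insig1, Msmo1, Mvd and Stard4 held without each library in turn and under each other setting tried. The other 11 ended without at least 1 cKO library. Apoe and Cyp51 lost theirs without iOL Eed cKO replicate 1 (edgeR adjusted p = 0.0676 and 0.0614), Insig2 without iOL Eed cKO replicate 2 (0.0699) and Tm7sf2 without either (0.113 to 0.12). Acat2, Fdps, Lss, Sc5d, Elovl6 and Acsl3 lost theirs without either of these or without OPC Eed cKO replicate 1 or 2, at adjusted p from 0.0612 (Acat2) to 0.201 (Acsl3), and Acaca without any library of the 4 iOLs and 3 cKO OPCs (0.0594 to 0.23). The count of lower genes was 10 without OPC Eed cKO replicate 1 or 2. Over all genes tested it was 2311 and 2360 in these fits, beside 2956 in the main fit. In the day 6 libraries alone, with 1 cKO OPC library, Lss was at log2 −0.21, Sc5d at −0.20, Elovl6 at −0.14 and Acsl3 at −0.22. With postnatal day as a term these 4 did not pass edgeR's test, with Lss at log2 −0.51, adjusted p = 0.108 and Sc5d at −0.34, adjusted p = 0.0853. Elovl6 was at −0.26, adjusted p = 0.121 and Acsl3 at −0.29, adjusted p = 0.134 in that fit, and Acat2 did not pass either (−0.32, adjusted p = 0.0833).

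**Figure D3:**
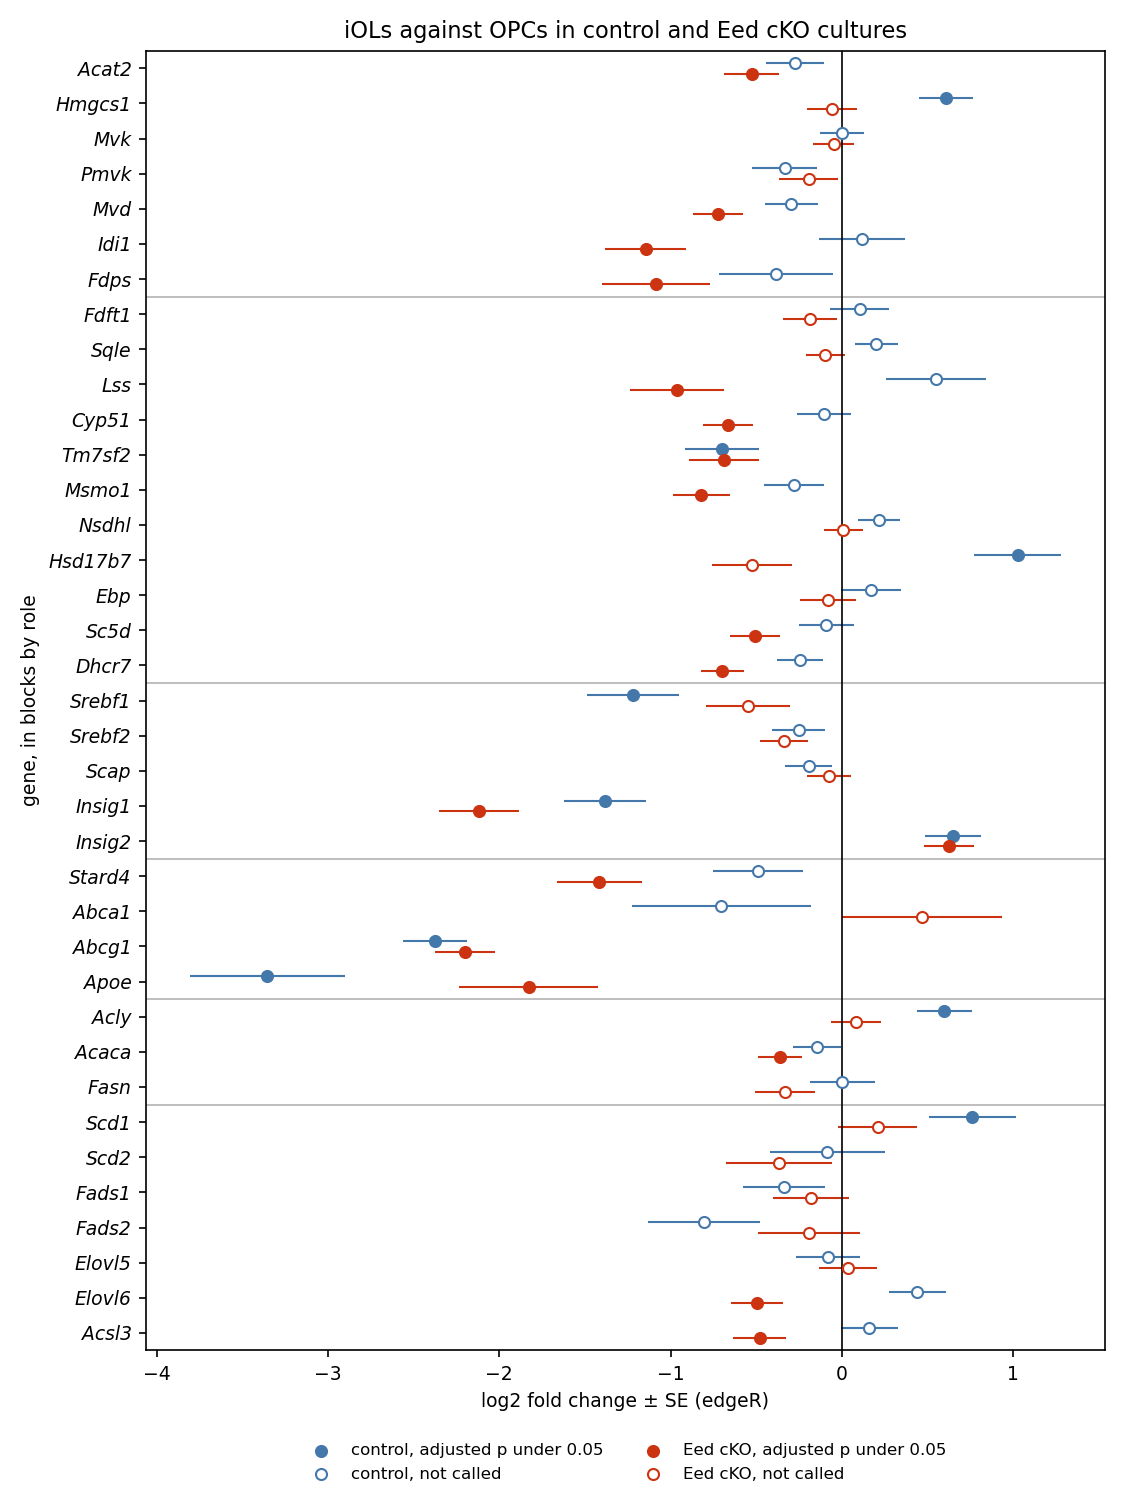
Log2 fold change of iOLs against OPCs with its SE for each of the 37 genes (rows, in blocks by role), in control cultures (blue) and in Eed cKO cultures (red), with filled points for an edgeR adjusted p under 0.05. Filled red points lie left of 0 for 17 genes and filled blue points for 5, and the filled blue points right of 0 are Hmgcs1, Hsd17b7, Insig2, Acly and Scd1.

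The comparison of iOLs between Eed cKO and control asked which steps differ after Eed loss in differentiating cells. The levels of 6 sterol enzymes and 2 fatty acid enzymes were lower in cKO iOLs. Of the 37 genes 8 were lower, none was higher and 29 did not pass, where 3.51% of all genes tested were lower and 7.08% higher. Before adjustment 17 were lower and 2 higher with p below 0.05 by edgeR, and DESeq2 called 14 lower and 1 higher. Of all 13549 genes 1167 were lower and 1975 higher at that unadjusted p, and DESeq2 called 640 lower and 1202 higher. The median log2 fold change was −0.39 over the 37 and −0.0036 over all genes, and 29 of the 37 values were below 0.

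Hmgcs1 was at 1421 and 1528 CPM in control iOLs and 864 and 938 CPM in cKO iOLs, a level near that of OPCs. The pairs did not overlap, and the difference was 1.64-fold (log2 −0.71 ± 0.16, edgeR adjusted p = 0.0225). Mvd was at 99.6 and 106 CPM and 61.5 and 66.8 CPM (log2 −0.68 ± 0.16, adjusted p = 0.0246), and Mvk, the kinase of mevalonate, at 91.8 and 98.3 CPM and 64.6 and 66.9 CPM (log2 −0.53 ± 0.13, adjusted p = 0.0305). Both were lower in each cKO library than in each control. Acat2, Idi1 and Fdps were at log2 −0.62 ± 0.17, −0.65 ± 0.25 and −0.70 ± 0.34 and did not pass (adjusted p = 0.051, 0.156 and 0.259), and Pmvk was at −0.06 ± 0.19.

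Of the steps from squalene to cholesterol 3 were called. Ebp, the sterol isomerase, was at 28.3 and 28.6 CPM in control iOLs and 16.1 and 18.3 CPM in cKO iOLs (log2 −0.73 ± 0.18, edgeR adjusted p = 0.0303). Nsdhl, a dehydrogenase of sterol methyl removal, was at 121 and 133 CPM and 87.5 and 89.1 CPM (log2 −0.52 ± 0.12, adjusted p = 0.0275), and Dhcr7 at 197 and 228 CPM and 138 and 159.9 CPM (log2 −0.51 ± 0.14, adjusted p = 0.0428). In all 3 the control pair lay above the cKO pair. Ebp and Nsdhl were also lower without overlap in cKO OPCs, as given below. The largest decreases among the 37 by fitted value were those of Lss and Hsd17b7, which did not pass: Lss was at 338 and 399.9 CPM against 192 and 218 CPM (log2 −0.85 ± 0.29, adjusted p = 0.108) and Hsd17b7 at 107 and 117 CPM against 62.0 and 65.8 CPM (log2 −0.81 ± 0.25, adjusted p = 0.0773). Cyp51, Msmo1, Tm7sf2, Fdft1, Sqle and Sc5d had log2 values from −0.74 to −0.19, all below 0 and none called.

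Elovl6 was at 216 and 212 CPM in control iOLs and 132 and 133 CPM in cKO iOLs (log2 −0.69 ± 0.17, edgeR adjusted p = 0.0291; chromosome 3, 129532386 to 129638495). Acsl3 was at 149 and 187 CPM and 100.0 and 111 CPM (log2 −0.67 ± 0.17, adjusted p = 0.0331), again as separate pairs. The core fatty acid enzymes Acly, Acaca and Fasn were at log2 −0.28 ± 0.16, −0.26 ± 0.14 and −0.18 ± 0.19, the desaturases Scd1 and Scd2 at −0.45 ± 0.25 and −0.43 ± 0.34, and none passed. Srebf1 was at 98.0 and 85.7 CPM in control iOLs and 138 and 179.9 CPM in cKO iOLs (log2 0.79 ± 0.27, adjusted p = 0.101), and Abca1 at 113 and 113 CPM and 236 and 274 CPM (log2 1.17 ± 0.52, adjusted p = 0.217). Neither passed, although both cKO libraries were the higher for each gene, and edgeR called both higher in the iOL libraries alone (log2 0.80, adjusted p = 0.00768, and 1.19, adjusted p = 0.000725). Insig1, Insig2, Srebf2, Scap, Stard4, Abcg1, Apoe, Fads1, Fads2 and Elovl5 were not called, with log2 values between −0.29 and 0.48.

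Other oligodendrocyte genes moved in the same comparison. All 8 markers of differentiating oligodendrocytes were lower in cKO iOLs, and their sum was 7911 and 7246 CPM in control and 2214 and 2901 CPM in cKO iOLs. Of 9 myelin markers 4 were lower, and of 11 astrocyte markers none was called by edgeR, with 1 higher and 0 lower at an unadjusted p under 0.05. Their part in the lipid gene values was not tested. Each of the 8 calls ended without any 1 of the 4 iOL libraries, where 1 library is left in an arm (edgeR adjusted p up to 0.313), and those of Acsl3, Dhcr7, Ebp, Mvk and Nsdhl also without OPC Eed cKO replicate 1 or 2. The count of lower genes was 5 and 4 without OPC Eed cKO replicate 1 and 2, and 13 without replicate 3, while in the iOL libraries alone it was 23. Over all genes tested the lower counts in these fits were 351, 353, 641 and 1552, beside 475 in the main fit.

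In OPCs Eed cKO libraries were compared with controls to find which steps differ in proliferating precursors. None of the 37 genes passed edgeR's test, where 2.94% of all genes tested were higher and 0.303% lower. With edgeR's p before adjustment below 0.05 there were 4 higher and 6 lower genes, and DESeq2 called 2 higher and 2 lower. Of all 13549 genes 1784 were higher and 1693 lower at that unadjusted p, and DESeq2 called 767 higher and 239 lower. The median log2 fold change over the 37 was −0.01, beside −0.02 over all genes.

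The cKO OPC libraries did not form 1 group in these genes. Lss was at 258 and 247 CPM in controls and 461, 499 and 239 CPM in cKO OPCs, so that replicates 1 and 2 stood out and replicate 3 was below both controls (log2 0.66 ± 0.27, edgeR adjusted p = 0.171). Hsd17b7 was at 55.8 and 54.2 CPM and 99.2, 118 and 59.7 CPM (log2 0.74 ± 0.24, adjusted p = 0.117), and Idi1 at 23.5 and 23.7 CPM and 38.5, 45.3 and 24.5 CPM (log2 0.61 ± 0.23, adjusted p = 0.151). All 3 cKO libraries were above both controls for these 2 genes, replicate 3 by little. Insig1, at 321 and 257 CPM and 439.9, 468 and 269 CPM (log2 0.44 ± 0.22, adjusted p = 0.228), and Stard4, at 136 and 117 CPM and 234, 275 and 142 CPM (log2 0.78 ± 0.24, adjusted p = 0.114), were also highest in replicates 1 and 2, while replicate 3 lay between the controls for Insig1 and just above them for Stard4. Tm7sf2 went the other way, at 94.3 and 109.6 CPM and 52.2, 50.2 and 80.3 CPM (log2 −0.74 ± 0.19, adjusted p = 0.0772), and so did Mvk (log2 −0.48 ± 0.12, adjusted p = 0.0618). Ebp and Nsdhl were also lower without overlap (log2 −0.48 ± 0.16 and −0.31 ± 0.11, edgeR adjusted p = 0.127 and 0.14). For Mvk, Ebp and Nsdhl the cKO effect in iOLs minus that in OPCs was log2 −0.05 ± 0.17, −0.25 ± 0.24 and −0.21 ± 0.17. All 3 genes were thus lower without overlap at both stages, although none passed edgeR's test in OPCs. A decrease particular to iOLs is therefore not shown for them, and neither is an equal one at both stages. Hmgcs1, Mvd, Dhcr7, Elovl6 and Acsl3, also called lower in iOLs, overlapped between genotypes in OPCs. For Apoe the levels were 2739.8 and 4013 CPM in controls and 1092, 1049 and 2537 CPM in cKO OPCs, with all cKO libraries lower (log2 −1.11 ± 0.37, adjusted p = 0.128).

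Postnatal day splits the OPC libraries in the same way, since cKO replicates 1 and 2 and control replicate 1 are of day 7. Within day 7, with 2 cKO libraries and 1 control, the cKO minus control difference of log2 (CPM + 0.5) was above 0 for 24 of the 37 genes, with a median of 0.08. Within day 6, with 1 library of each genotype, it was above 0 for 7 and below 0 for 30, with a median of −0.13. The sign was the same on both days for 6 genes above 0 and 12 below. Lss differed by 0.89 on day 7 and −0.05 on day 6, Hsd17b7 by 0.95 on day 7 and 0.14 on day 6, Stard4 by 0.90 on day 7 and 0.29 on day 6 and Idi1 by 0.82 on day 7 and 0.05 on day 6. Apoe was lower on both days (−1.36 on day 7 and −0.66 on day 6), and so was Tm7sf2 (−0.87 on day 7 and −0.45 on day 6). With so few libraries a day these values have no test. Counts and medians within a day were not made over all genes, so a shift shared by all genes cannot be told apart. Counts of called genes moved from 0 higher and 0 lower to 6 and 3 when OPC Eed cKO replicate 3 was left out. A fit with a term for postnatal day gave 1 and 3. Over all 13549 genes the counts moved as well, from 399 higher and 41 lower to 1334 and 810 without that library. With the term for postnatal day they were 848 and 534.

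**Figure D4:**
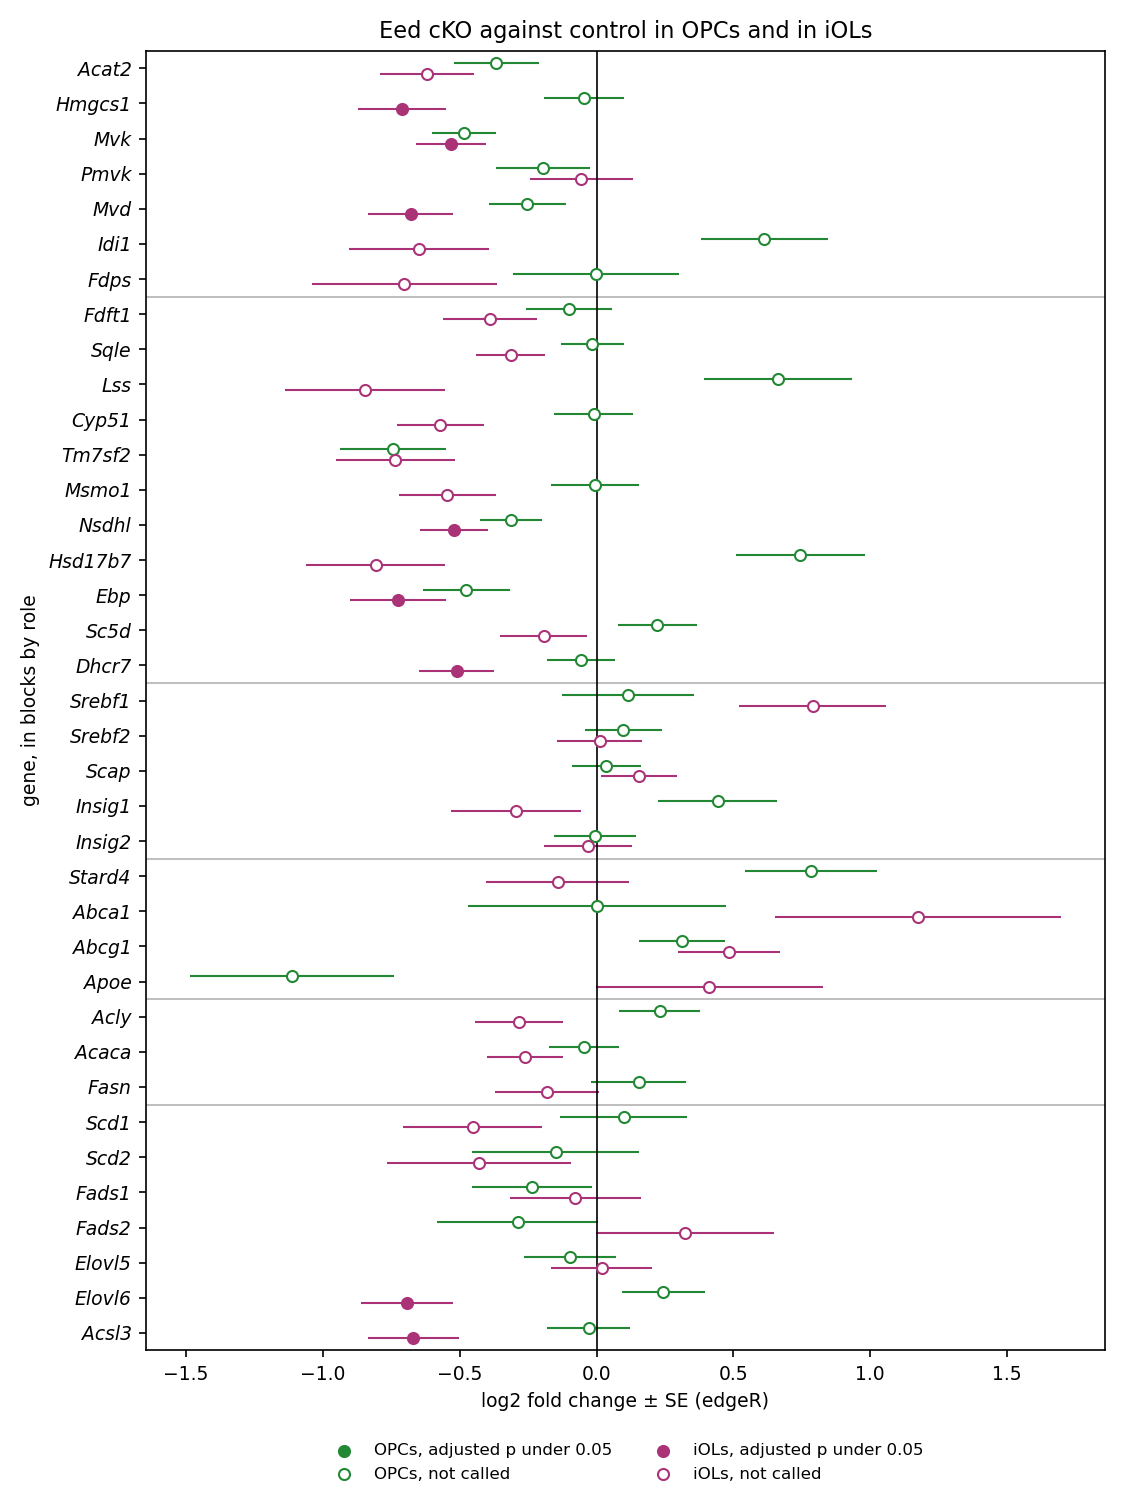
Log2 fold change of Eed cKO against control with its SE for each of the 37 genes (rows, in blocks by role), in OPCs (green) and in iOLs (purple), with filled points for an edgeR adjusted p under 0.05. No green point is filled, and the 8 filled purple points, Hmgcs1, Mvk, Mvd, Nsdhl, Ebp, Dhcr7, Elovl6 and Acsl3, all lie left of 0.

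The difference between the differentiation responses of cKO and control cultures was tested as an interaction. None of the 37 genes passed edgeR's test, where 1.83% of all genes tested did. Before adjustment, at p below 0.05, 12 had edgeR values with a lower response in cKO cultures and 1 with a higher one, and DESeq2 called 5, namely Hsd17b7, Lss, Idi1, Elovl6 and Hmgcs1. Of all genes tested 1245 had a lower and 1230 a higher response at that unadjusted p, and DESeq2 called 459 lower and 364 higher. The largest differences were of Hsd17b7 (log2 −1.55 ± 0.35, adjusted p = 0.0588), Apoe (1.53 ± 0.56, adjusted p = 0.196), Lss (−1.51 ± 0.40, adjusted p = 0.0938) and Idi1 (−1.26 ± 0.34, adjusted p = 0.0992). Elovl6 was at −0.94 ± 0.23, adjusted p = 0.0738, Stard4 at −0.93 ± 0.35, adjusted p = 0.212 and Hmgcs1 at −0.67 ± 0.22, adjusted p = 0.152. Genes called in 1 genotype and not in the other, such as Acly and Scd1 in controls or Msmo1 and Dhcr7 in cKO cultures, are therefore not shown to respond differently. The count of called genes rose to 8 without OPC Eed cKO replicate 3, 5 with postnatal day as a term and 7 with the replicate number as a term. Over all genes tested it rose too, from 128 higher and 120 lower responses to 548 and 729, 676 and 526, and 479 and 570 in these fits.

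**Figure D5:**
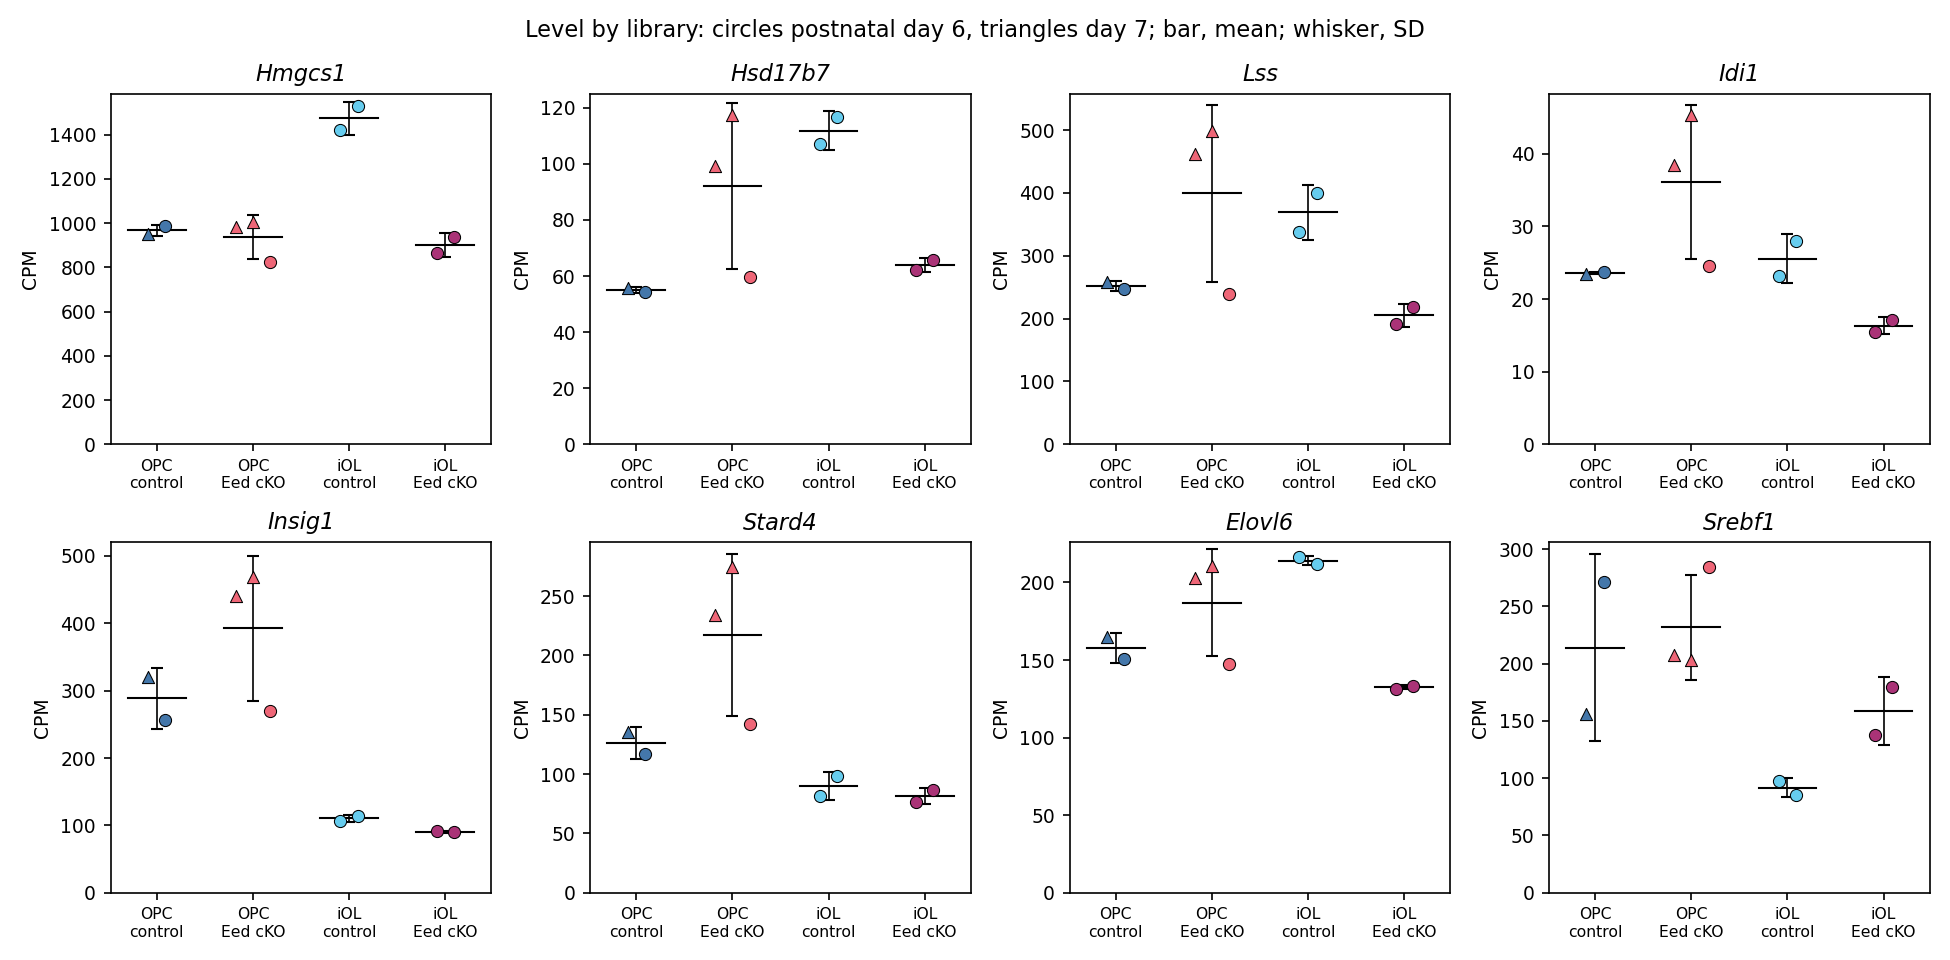
Level (CPM) of 8 genes in each library by group, with postnatal day 6 as circles and day 7 as triangles, the mean as a bar and the SD as a whisker. Hmgcs1 is highest in the 2 control iOL libraries, and for Hsd17b7, Lss, Idi1, Insig1, Stard4 and Elovl6 the 2 day 7 libraries of cKO OPCs lie above the day 6 library of the same group.

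Other genes of these pathways were taken from lists, whose counts stand beside the 21.0% of all genes that rose and 25.3% that fell in controls and the 18.5% and 21.8% in cKO cultures. Of 14 measured further genes of sterol and isoprenoid synthesis 3 rose, 4 fell and 7 did not pass in controls, among them Ggps1 (log2 0.80 ± 0.18), which makes the isoprenoid for protein prenylation, and 1 rose, 4 fell and 9 did not pass in cKO cultures. Of 12 genes of SREBP processing and sterol sensing 0 rose, 4 fell and 8 did not pass in controls, led by the ubiquitin ligase gene Rnf145 (−1.12 ± 0.14 in controls and −0.87 ± 0.13 in cKO cultures), and 1 rose, 1 fell and 10 did not pass in cKO cultures. Of 24 genes of sterol uptake, storage and traffic 7 rose, 7 fell and 10 did not pass in controls and 3 rose, 7 fell and 14 did not pass in cKO cultures. The lipoprotein receptor Scarb1 fell in both (log2 −1.58 ± 0.15 and −1.58 ± 0.14), as did the transporter Abca8b (−2.32 ± 0.24 and −1.55 ± 0.22). Of 12 LXR and oxysterol genes 0 rose, 4 fell and 8 did not pass in controls, with Cyp46a1, the cholesterol hydroxylase of the brain, at −1.81 ± 0.16, and 2 rose, 4 fell and 6 did not pass in cKO cultures, with Cyp46a1 at −1.53 ± 0.15. The edgeR adjusted p of these genes ran from 3.32e-05 (Cyp46a1 in controls) to 0.00586 (Ggps1 in controls).

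Of 32 further genes of fatty acid synthesis, elongation and activation 9 rose, 10 fell and 13 did not pass in controls and 8 rose, 6 fell and 18 did not pass in cKO cultures. Elovl7, an elongase of very long chains, rose in both (log2 2.91 ± 0.33 and 1.34 ± 0.28, edgeR adjusted p = 0.000129 and 0.00468), and Elovl2 fell in both (−2.36 ± 0.47 and −1.56 ± 0.42, adjusted p = 0.00309 and 0.0159). In cKO iOLs against control iOLs 3 of the 32 were lower and 0 higher: Elovl7 (−1.58 ± 0.31), Slc25a1 (−0.80 ± 0.14), which exports citrate for Acly, and Elovl1 (−0.70 ± 0.14), with adjusted p of 0.0124, 0.00711 and 0.0135. Of 19 genes of myelin sphingolipid and galactolipid synthesis and transfer 7 were lower and 1 higher in cKO iOLs. They include Fa2h (log2 −1.87 ± 0.31), which hydroxylates myelin fatty acids, and Ugt8a (−1.41 ± 0.27), which makes galactosylceramide, with adjusted p of 0.0063 and 0.0116. The median log2 fold change in cKO iOLs was −0.44 for these 19, −0.05 for the 32 and −0.39 for the 37.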

How the data were processed

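RNA-seq libraries of OPCs and iOLs were sequenced, 9 in all. The deposited values are raw counts per gene made by the authors. Per the submitters' processing notes, the tools named include cutadapt 1.14, STAR 2.6.0 and featureCounts of Subread 1.6.2, with build mm10. Per the labels' protocols, RNA over a set amount went through a stranded poly(A) kit and less RNA through a SMARTer kit, and the sources used here do not give which library used which. A second header line inside the table (1) was left out, and there were 0 per-sample columns beyond the 9 libraries.

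All 4 groups were fitted in 1 model with edgeR 4.0.16 (TMM, quasi-likelihood test, R 4.3.3, limma 3.58.1), with p-values adjusted by Benjamini-Hochberg over 13549 genes and a threshold of 0.05. The filter (10 counts) removed 0 genes. The biological coefficient of variation was 16.3% on 5 residual degrees of freedom. Fold changes are log2 ± SE. The script was tested on simulated data. Alternatives were DESeq2 1.42.0, other scaling, filters, the groups compared alone, the replicate number or postnatal day as a term, day 6 libraries alone, and each library left out. Named genes were, in each comparison and role, those called with the largest change and those whose call differed between comparisons, with up to 4 called genes of each further list. The 37 genes and all lists were chosen with earlier results of these data known. A part of the further lists is not reported here.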

Additional observations from a re-analysis of the deposited data

Results flagged for a closer look

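In 3 genes every Eed cKO library lay on one side of the controls in OPCs and on the other side in iOLs. Idi1 was at log2 0.61 in OPCs and −0.65 in iOLs, a difference of −1.26 ± 0.34 (edgeR adjusted p = 0.0992). Hsd17b7 was at log2 0.74 for cKO against control OPCs and −0.81 for iOLs, a difference of −1.55 ± 0.35 (edgeR adjusted p = 0.0588). Apoe was at log2 −1.11 among OPCs and 0.41 among iOLs, a difference of 1.53 ± 0.56 (edgeR adjusted p = 0.196). In 2 further genes every iOL library lay above the OPCs in control cultures and below them in cKO cultures. Lss was at log2 0.55 in controls and −0.96 in cKO cultures, a difference of −1.51 ± 0.40 (edgeR adjusted p = 0.0938). Elovl6 was at log2 0.44 over control differentiation and −0.50 over that of cKO cultures, a difference of −0.94 ± 0.23 (edgeR adjusted p = 0.0738). None of the 5 differences passed the test over all genes. The share of all genes with such opposite positions was not counted, so these 5 have no background to stand beside. In Idi1, Hsd17b7, Lss and Elovl6 the high OPC libraries were cKO replicates 1 and 2, both of day 7. Groups held 2 or 3 libraries, too few to look for single outlying ones.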

How the results depend on the processing

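Of 1319 gene values recomputed under alternatives, 1064 kept their direction and side of the threshold, 106 lost a call, 140 gained one and 9 turned sign, and the cause was not tested. RLE scaling and the filters changed no count by over 1.5 times. Counts of higher genes for differentiation in controls were 2 with the groups compared alone and 8 with day as a term, where 1862 and 3270 of all genes were higher. The count of lower genes there was 9 with day as a term, where 3758 of all genes were lower. For cKO against control iOLs the lower count was 23 with the groups compared alone, 17 with day as a term and 14 by DESeq2, and the higher count 3, 2 and 1. Of all genes 1552, 910 and 640 were lower and 2147, 1770 and 1202 higher in these settings. For cKO against control OPCs the higher and lower counts were 1 and 3 with day as a term and 2 and 2 by DESeq2. Of all genes 848 were higher and 534 lower with day as a term, and 767 and 239 by DESeq2. For the interaction the count was 5 with day as a term and 5 by DESeq2. Of all genes 676 were higher and 526 lower with day as a term, and 364 and 459 by DESeq2. In day 6 libraries the median log2 fold change was −0.22 for differentiation in cKO cultures and −0.13 for cKO against control OPCs. The E-box was in 20.5% of promoter windows against 2.56% for the sterol element.

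Leaving out 1 library gave 0 to 7 higher and 4 to 11 lower for differentiation in controls, 0 to 1 and 7 to 20 for differentiation in cKO cultures, 0 to 6 and 0 to 5 for cKO against control OPCs, 0 to 2 and 0 to 13 for cKO against control iOLs, and 0 to 8 for the interaction. Medians ran from −0.50 to −0.37 for differentiation in cKO cultures, −0.068 to 0.17 for cKO against control OPCs and −0.42 to −0.31 for cKO against control iOLs. Counts over all genes tested moved as well. Without OPC Eed cKO replicates 1, 2 and 3 in turn, cKO against control OPCs had 161, 161 and 1334 higher genes. Its lower genes were 3, 4 and 810. For cKO against control iOLs 351, 353 and 641 genes were lower in these fits. Differentiation in cKO cultures had 2311, 2360 and 3137 lower genes. A lone library in a group was assumed to vary like the other groups.

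Replicate numbers shared no source in the labels, so the numbers were not taken as pairs. The correlation of same-numbered deviations was 0.064 for differentiation in controls and −0.084 and −0.093 for differentiation in cKO cultures. It was 0.326 and −0.362 for cKO against control OPCs and 0.254 for cKO against control iOLs. In a group of 2 libraries the deviations mirror each other, so these values cannot decide whether the numbers were pairs. Among OPCs number 1 was of day 7 in both genotypes, while number 2 was of day 6 in controls and day 7 in cKO. With the replicate block the counts were 6 higher and 3 lower for cKO against control OPCs, 13 lower for cKO against control iOLs and 7 for the interaction. Over all genes they were 1223 higher and 718 lower for OPCs, 572 lower for iOLs, and 479 higher and 570 lower for the interaction.

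Signs turned in controls for Abca1 without OPC control replicate 2, with values from −1.41 to 0.74 over the libraries left out, and for Idi1 without iOL control replicate 2, with −0.022 to 0.24. Over differentiation of cKO cultures they turned for Abca1 (−0.38), Scd1 (−0.13) and Hmgcs1 (0.034) with day as a term, for Hmgcs1 (0.13) and Hsd17b7 (0.11) in day 6 libraries and for Hmgcs1 without iOL Eed cKO replicate 1, with −0.14 to 0.0011 over the libraries left out. Lss in OPCs was at −0.047 in day 6 libraries. Of these, Abca1 without OPC control replicate 2 alone was called. Levels per kilobase were not run, since transcript lengths were not used here.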

Other observations

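Fatty acid oxidation, the reverse path to synthesis, was measured by 22 genes. In control cultures 4 rose and 1 fell over differentiation, and in cKO cultures 8 rose and 1 fell. Of all genes tested 21.0% rose and 25.3% fell in controls, and 18.5% rose and 21.8% fell in cKO cultures. Cpt2, a carnitine transferase of the inner mitochondrial membrane, was at 8.79 and 12.1 CPM in control OPCs and 30.1 and 32.7 CPM in control iOLs (log2 1.59 ± 0.29, edgeR adjusted p = 0.00201). In cKO cultures it was at 5.75, 6.301 and 10.99 CPM and 24.9 and 27.9 CPM (log2 1.78 ± 0.26, adjusted p = 0.00065).

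Markers of other cell types were measured in part. In cKO against control iOLs, 3 higher and 0 lower of 10 neuronal markers, 2 higher and 0 lower of 4 endothelial markers and 1 higher and 0 lower of 6 markers of pericytes and fibroblasts were called.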
